A study of Mus musculus with 18 samples.

Results

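The genes described here are 9 genes by which granulosa cells and their contacts with the oocyte are commonly followed, namely Foxl2, Wt1, Gata4, Nr5a1, Nr5a2, Lgr5, Krt18, Gja1 and Gja4. They were picked by gene symbol, with earlier results of these data known. They are 9 of the 53715 genes counted and of the 28252 genes with a deposited TPM (reads per gene length, scaled to a sum of 1000000 per library). RNA was sequenced in bulk from mouse oocytes labelled as coming from primordial follicles, from primary follicles or as MII oocytes, which are arrested in metaphase of the second meiotic division. All groups were of the strain C57Bl/6j x CBA/J, all samples were marked as in vivo, and each stage had a sham group and one labelled NTY, a term left unexplained in the sources used here, with 3 libraries in each of the 6 groups. From the labelled protocol, the 12 primordial and primary libraries were read as laser microdissected, with material of several caps pooled by stage, amplified RNA and capture of coding transcripts, and the 6 MII libraries as collected oocytes prepared by Smart-seq II. Stage and library method can therefore not be told apart between these sets. The labels do not say whether libraries came from separate animals, nor how old the animals were, so p-values measure the spread between libraries, which may be technical.

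Granulosa cells surround the oocyte, flat in the primordial follicle and cuboidal in the primary follicle, and feed it through gap junctions. Foxl2, a forkhead factor, keeps the ovarian identity of these cells, while the zinc finger factors Wt1 and Gata4 act in the gonad from its first formation. The nuclear receptors Nr5a1 (SF-1) and Nr5a2 (LRH-1) drive steroidogenic genes. Lgr5, a receptor for R-spondins, marks ovarian surface epithelium and granulosa precursors, and Krt18 is a keratin of simple epithelia. Gja1 encodes connexin 43, the main connexin between granulosa cells, and Gja4 encodes connexin 37, which the oocyte contributes to its junctions with granulosa cells.

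On GRCm38, by the GENCODE M21 annotation, the identity genes lie at chr9:98955288-98958543 (Foxl2, plus strand), chr2:105126529-105173616 (Wt1, plus), chr14:63198922-63271692 (Gata4, minus), chr2:38692656-38714542 (Nr5a1, minus) and chr1:136842571-136960448 (Nr5a2, minus). Lgr5 lies at chr10:115450311-115587780 (minus) and Krt18 at chr15:102028180-102032027 (plus). The connexin genes lie at chr10:56377330-56402513 (Gja1, plus) and chr4:127311421-127314039 (Gja4, minus). All 9 are protein-coding. Whether counting used strand is not given in the sources used here. The antisense gene Foxl2os shares 12 exon bases with Foxl2 and held 3 to 110 counts in the microdissected libraries, against up to 18125 for Foxl2.

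The results turn most on how differently the connexin genes behaved, so the 250 bases before the RefSeq start of each are shown (GRCm38.p6, 5′ to 3′ on the gene's strand). The Gja1 window is chr10:56377050-56377299 on the plus strand, and the Gja4 window is chr4:127314040-127314289 on the minus strand. Capitals mark matches, on either strand, to the GATA motif (AGATAA), the NR5A motif (AAGGTCA), a forkhead motif (GTAAACA) or the E-box (CANNTG).
Gja1: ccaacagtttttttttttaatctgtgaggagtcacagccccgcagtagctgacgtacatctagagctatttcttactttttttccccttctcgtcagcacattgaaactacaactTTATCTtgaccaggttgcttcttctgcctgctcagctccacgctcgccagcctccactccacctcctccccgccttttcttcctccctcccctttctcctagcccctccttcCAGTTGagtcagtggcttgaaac
Gja4: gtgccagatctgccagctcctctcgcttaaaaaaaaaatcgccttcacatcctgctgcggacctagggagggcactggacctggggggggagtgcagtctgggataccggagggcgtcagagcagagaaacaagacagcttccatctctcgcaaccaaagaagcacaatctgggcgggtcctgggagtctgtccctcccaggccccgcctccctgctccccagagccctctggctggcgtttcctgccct
The Gja1 window held 1 GATA match, 135 bases before the start, and 1 E-box, 23 bases before it. The Gja4 window held no match to these 4 motifs and had 1 GC box (GGGCGG, in lower case), 79 bases before the start. Of all 32851 such windows of RefSeq genes, 9.99% held the GATA motif, 4.08% the NR5A motif, 3.17% the forkhead motif, 66.2% an E-box and 32.7% a GC box. These matches are a description of letters and not of binding. RefSeq windows were matched for 5 of the 9 genes (Foxl2, Gja1, Gja4, Krt18 and Nr5a2).

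Depth was 15149564 to 29205503 counts in the microdissected libraries and 8652089 to 9978830 in the MII libraries, so that 3 counts, taken as the floor of detection, corresponded to 0.103 to 0.198 and 0.301 to 0.347 CPM (counts per 1000000 of the library). These floors cover counting error only. The microdissected libraries stood far apart within groups. Of genes with at least 1000 counts in one replicate, 41.2%, 40.8%, 14.3% and 40.5% had 3 or fewer in another replicate of primordial sham, primordial NTY, primary sham and primary NTY, against 0 and 0.04% in the MII groups. By the same measure, the 9 genes gave Foxl2 in primordial sham, Nr5a2 and Gja4 in primordial NTY, Lgr5 in primary sham and Nr5a2 in primary NTY. The labelled cell type was checked with 15 oocyte markers, whose summed TPM was 3.07 to 2041 in the microdissected and 10493 to 17495 in the MII libraries. Primordial NTY replicate 3 had the lowest sum, 3.07, with 6 of the 15 markers at 0 (Zp1, Bmp15, Figla, Sohlh1, Oosp1 and Ooep). Summed TPM of 9 stroma markers was 531 to 12044 in the microdissected libraries and 0 to 2.69 in the MII libraries. In bulk RNA, fewer cells of a type and less RNA per cell cannot be told apart.

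By the median TPM over the 12 microdissected libraries, the order of levels was Wt1 (347), Foxl2 (232), Gja4 (184), Gja1 (153), Gata4 (111), Nr5a2 (19.0), Nr5a1 (4.19), and Krt18 and Lgr5 (both 0). Neighbours from Foxl2 to Gja1 were not separated, since Foxl2 exceeded Gja4 in 6 of 12 libraries, Gja4 exceeded Gja1 in 5 and Gja1 exceeded Gata4 in 7. Wt1 exceeded Foxl2 in 10, Gata4 exceeded Nr5a2 in 10 and Nr5a2 exceeded Nr5a1 in 8. At least 10 counts were found for 5 to 9 of the 9 genes per microdissected library, all 9 in primary sham replicate 2 alone, and for 3 or 4 per MII library. The plot of levels by library shows this spread.

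**Figure D1:**
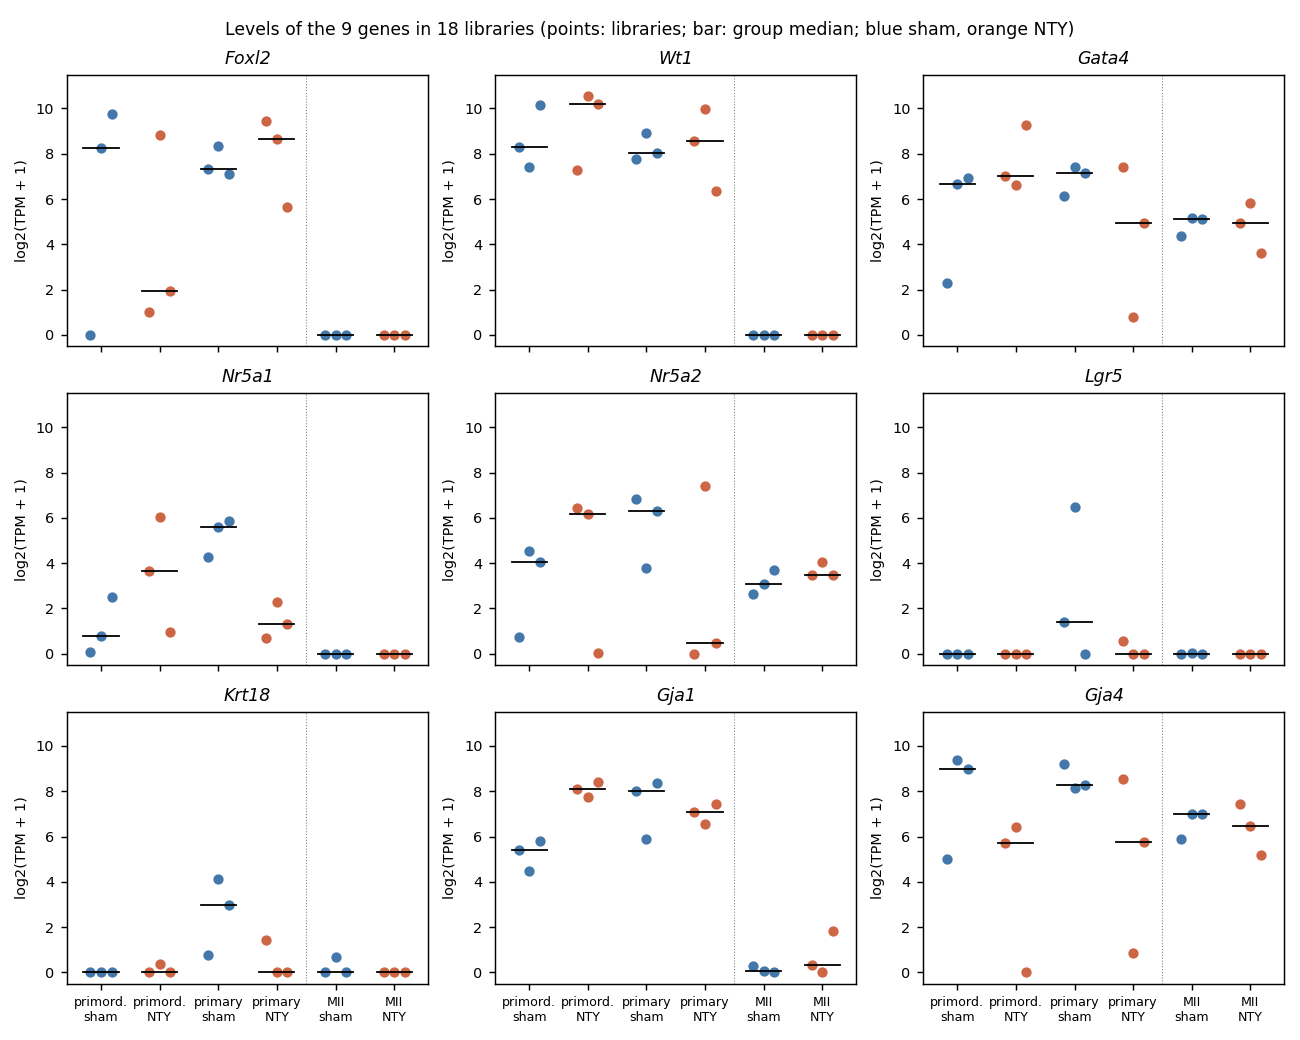
Level of each of the 9 genes in each of the 18 libraries, as log2(TPM + 1), by stage and treatment (points are libraries, blue sham and orange NTY, and bars are group medians; the dotted line parts the microdissected from the MII libraries). Foxl2, Wt1 and Nr5a1 were at 0 in all 6 MII libraries, Gja1 was near 0 there, and Gja4, Gata4 and Nr5a2 were detected in all 6.

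Foxl2 was high in most microdissected libraries but varied from absent to abundant between replicates. Its TPM was 0, 304 and 852 in the primordial sham libraries, and 1.01, 452 and 2.84 in those of primordial NTY. It was 159, 327 and 138 in primary sham and 700, 407 and 48.5 in primary NTY. The treatment groups overlapped at both stages, and Foxl2 was low in both treatments of the primordial stage, in 1 sham and 2 NTY libraries. All 6 MII libraries had 0 counts. The genes whose log2(TPM + 1) ran most like Foxl2 over the 12 libraries, among 7837 genes, were Men1 (Pearson r 0.947, Spearman rho 0.881) and Ext2 (r 0.904, rho 0.755). These libraries share their preparation and the dropouts described above, so the likeness is a description.

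Wt1 was abundant in every microdissected library. Its TPM was 316, 169 and 1154 in the primordial sham libraries against 154, 1509 and 1182 in NTY. In primary follicles it was 219, 489 and 264 in sham and 379, 995 and 80.5 in NTY. NTY and sham overlapped at both stages, and the MII libraries had 0 counts.

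Gata4 TPM was 3.96, 100 and 121 in the primordial sham libraries against 128, 98.9 and 614 in NTY. It was 69.1, 170 and 141 in primary sham and 168, 0.717 and 29.6 in primary NTY. The groups overlapped, with primordial sham replicate 1 and primary NTY replicate 2 far below their fellows. Unlike Foxl2 and Wt1, Gata4 was detected in every MII library, at 19.6, 35.1 and 33.2 in sham and 29.6, 55.4 and 11.1 in NTY, again with overlap.

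Of the steroidogenic receptors, Nr5a1 was low, with a TPM of 0.050, 0.720 and 4.58 in the primordial sham libraries against 11.7, 65.5 and 0.957 in NTY. In primary follicles it was 18.1, 47.1 and 57.2 in sham and 0.593, 3.79 and 1.44 in NTY. Here every NTY library lay below every sham library, whereas the primordial groups overlapped. The log2 fold change of NTY against sham in primary follicles was -3.91 (SE 3.05, n = 3 per group), which did not pass the test (edgeR quasi-likelihood, Benjamini-Hochberg adjusted p = 0.923). Of the 10522 genes tested, 13.8% had every primary NTY library below every sham library. The primary minus the primordial NTY effect was -7.54 for Nr5a1 on the log2 scale (SE 4.29, edgeR adjusted p = 0.522). DESeq2 alone called it (-6.90, adjusted p = 0.0395), beside 1216 of all 10522 genes. No Nr5a1 count was found in MII libraries.

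Nr5a2 was high in some libraries and absent in others of the same group. Its TPM was 0.647, 22.3 and 15.7 in primordial sham, 86.1, 70.7 and 0.0215 in primordial NTY, 113, 12.6 and 78.5 in primary sham, and 0, 169 and 0.381 in primary NTY. The treatment groups overlapped at both stages. In MII oocytes Nr5a2 was steady and low, at 5.18, 7.46 and 12.1 in sham and 10.2, 15.4 and 10.2 in NTY.

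Lgr5 and Krt18 were detected mainly in primary follicles, and in few libraries. Lgr5 had 0 counts in all 6 primordial libraries, TPM of 1.61, 88.2 and 0 in primary sham, and 0.490, 0 and 0 in primary NTY. Its 6846 counts in primary sham replicate 2 compare with 114 and 40 counts in the other 2 microdissected libraries that had any. Krt18 had TPM of 0.705, 16.7 and 6.92 in primary sham (7, 181 and 80 counts) and 1.66, 0 and 0 in primary NTY (19 counts in replicate 1). In primordial follicles 3 counts were found in NTY replicate 2 and none elsewhere. In MII libraries, Lgr5 had 1 count and Krt18 had 3 counts, both in sham replicate 2, at or under the floor.

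For primary against primordial sham, both genes were at 0 in the primordial group, so their fitted log2 fold changes of 14.21 for Lgr5 (SE 4.97) and 9.37 for Krt18 (SE 3.51) depend on the prior count. Neither passed the edgeR test (adjusted p = 0.473 for both; unadjusted p = 0.00651 and 0.0105, n = 3 per group). DESeq2 called Lgr5 in this comparison (adjusted p = 3.96e-12) and between the stages in NTY (adjusted p = 6.78e-07), where edgeR did not (adjusted p = 0.548). Over all 10318 genes DESeq2 called 769 in the first and 1127 in the second. Without primary sham replicate 2 the edgeR log2 fold change of Lgr5 fell to 8.41, and without primary NTY replicate 1 that in NTY was 0.

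The summed markers of ovarian surface epithelium were highest in primary sham replicate 2, mostly through Krt19, and in primary NTY replicate 1. The summed TPM of 10 such markers, Lgr5 itself included, was 3139 in primary sham replicate 2 and 1114 in primary NTY replicate 1, against 1.29 to 235 in the other 10 microdissected libraries. Krt19 reached 2984 and 138 TPM in these 2 libraries and at most 0.151 elsewhere in the microdissected set, and the uroplakin genes Upk1b (1.12 and 679) and Upk3b (24.5 and 75.8) were high in one or both. In primary sham replicate 2, 2 of the 10 markers were at 0 (Msln and Lrrn4), and in primary NTY replicate 1 Aldh1a1 and Cdh1 were. Krt8, the usual partner of Krt18 in filaments, was not limited to them, with 354 TPM in primordial sham replicate 1 and 431 in primordial NTY replicate 2, where Krt18 was at 0 and 0.294. The part of these markers in the Lgr5 and Krt18 values was not tested. Krt18 was also detected in primary sham replicate 3, where the surface marker sum was 53.4. Lgr5 had its next highest count, 114, in primary sham replicate 1, where that sum was 131 and Krt7, Krt19 and Upk1b were at 0.

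**Figure D2:**
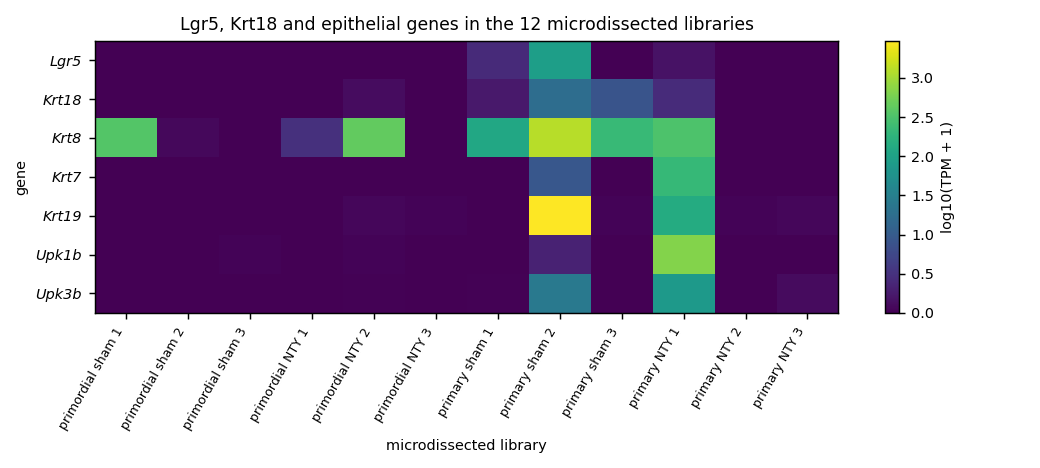
Lgr5, Krt18, other keratins and uroplakins in the 12 microdissected libraries, as log10(TPM + 1) by colour, with 1 column per library. Lgr5 at 88.2 TPM and Krt19 at 2984 TPM meet in primary sham replicate 2, and Upk1b at 679 TPM marks primary NTY replicate 1.

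Gja1 was higher in NTY than in sham in every pair of primordial libraries, a difference that did not pass the test. Its TPM was 41.9, 21.0 and 55.4 in the primordial sham libraries against 271, 213 and 342 in NTY, without overlap. In primary follicles it was 255, 58.1 and 324 in sham and 136, 93.5 and 171 in NTY, and these overlapped. The primordial log2 fold change was 3.03 (SE 1.48, n = 3 per group), with an edgeR unadjusted p = 0.0463 and an adjusted p = 0.449, so it did not pass. Over all genes tested, 5.19% had every primordial NTY library above every sham library. Of the 9 genes only Gja1 did. The primary minus the primordial NTY effect was -3.14 for Gja1 (SE 1.99), with an edgeR adjusted p = 0.588. Beside this, the summed TPM of 22 other granulosa genes was 79.8 to 1019 in primordial sham and 1974 to 3206 in primordial NTY. The inhibin subunit gene Inha, picked after its values were seen, made up most of this sum in each primordial NTY library. Its TPM was 0, 30.2 and 99.6 in sham against 1218, 1321 and 1914 in NTY. In primary follicles the sums of the 22 genes overlapped, at 400 to 2563 in sham and 532 to 1200 in NTY. The oocyte marker sum in primordial follicles was 363 to 2041 in sham and 3.07 to 674 in NTY. Of the 22 granulosa genes, 11, 7 and 5 were at 0 in the primordial sham libraries and 4, 4 and 11 in those of primordial NTY. The part of these genes and of the oocyte markers in the Gja1 values was not tested. In MII libraries Gja1 had 9, 1 and 0 counts in sham and 9, 0 and 88 counts in NTY.

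Gja4 had its highest primordial levels in sham. Its TPM was 31.2, 657 and 500 in sham and 52.1, 85.6 and 0 in NTY, with overlap through sham replicate 1. In primary follicles it was 586, 283 and 305 in sham and 369, 0.830 and 53.2 in NTY. Here NTY replicate 1 lay among the sham libraries and the other 2 lay below them. The primordial log2 fold change was -3.31 (SE 2.54), and the test was not passed (edgeR adjusted p = 0.694). MII libraries had 58.9, 127 and 125 TPM in sham and 171, 88.7 and 35.0 in NTY, which overlapped. Over the 12 microdissected libraries Gja4 was most like Rhot1 (r 0.956, rho 0.818) and Hadhb (r 0.943, rho 0.741) among 7837 genes, again as a description.

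Setting the connexin genes against each other within a library removes the library's depth. The balance was taken as log2((Gja4 TPM + 1)/(Gja1 TPM + 1)), where 0 means equal levels per length. In primordial follicles it was -0.41, 4.90 and 3.15 in sham and -2.35, -1.31 and -8.42 in NTY, and these groups did not overlap. Gja1 by itself did not overlap between these groups either, and the -8.42 came from a library with 0 counts of Gja4. How many other gene pairs separate the groups in this way was not computed. In primary follicles it was 1.20, 2.26 and -0.09 in sham and 1.44, -5.69 and -1.66 in NTY, which did overlap. In MII oocytes it was 5.63, 6.96 and 6.98 in sham and 7.09, 6.49 and 3.35 in NTY. All 6 MII libraries and 2 of 3 primordial sham libraries thus leaned to Gja4, and all 3 primordial NTY libraries to Gja1.

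Within stages, the balance was lower in NTY than in sham (log2 difference -3.52, mean -0.12 ± 5.23 (SD, n = 9) in NTY and 3.40 ± 2.86 (SD, n = 9) in sham). These SDs pool the 3 stages and so include the differences between them. Within primordial, primary and MII libraries the SD was 3.84, 3.57 and 2.01 in NTY and 2.71, 1.18 and 0.77 in sham (n = 3 each). The exact two-sided permutation test over libraries gave p = 0.0125, and 0.0375 after Benjamini-Hochberg adjustment over the 6 balance tests made. The genes and the balance tests were chosen with earlier results of these data known, which the adjustment does not cover. NTY was the higher in 6 of 27 within-stage pairs, namely 0 of 9 primordial, 2 of 9 primary and 4 of 9 MII pairs. The difference of group means was -6.57 in primordial, -3.10 in primary and -0.88 in MII oocytes. By library method, it was -4.83 within the microdissected stages (exact permutation p = 0.02) and -0.88 within MII (exact p = 0.7, where the smallest possible is 0.1). These separate tests were added after seeing the data, and whether the stages differ in this effect was not tested. After adjustment over the 6 tests, the microdissected value alone missed the threshold (0.0507). Leaving out any single library gave -4.08 to -2.78 (exact permutation p from 0.00325 to 0.028), but the adjusted p then ranged from 0.00975 to 0.081 and missed the threshold in 9 of 18 cases. These were the cases without primordial NTY replicate 1 or 3, primordial sham replicate 2 or 3, primary NTY replicate 3, primary sham replicate 2, MII NTY replicate 3, or MII sham replicate 2 or 3. Without primordial NTY replicate 3, the library with the fewest oocyte markers and no Gja4 count, the value was -2.78 (exact permutation p = 0.027, adjusted 0.081). Primary NTY replicates 2 and 3 carry like library codes (2E and 2E2), and the labels do not say whether they share material. With their TPM averaged to 1 library, which leaves 8 NTY libraries, the difference was -2.99 (exact permutation p = 0.0227) and missed the threshold after adjustment (0.0591). In the microdissected libraries the oocyte marker sum was 363 to 2041 in sham and 3.07 to 1095 in NTY, and the stroma marker sum 531 to 4129 and 977 to 12044. In primordial follicles the summed TPM of 5 endothelial markers was 566, 48.6 and 22.5 in sham against 1.04, 0.22 and 5.07 in NTY, without overlap. From 1 to 5 of these markers were above 0 per library, and Vwf was at 0 in all but sham replicate 3. The 566 in sham replicate 1 was Tek alone. In primary follicles the endothelial sums overlapped, at 0.41, 14.2 and 0.18 in sham and 4.07, 0.02 and 0.61 in NTY. How often sums of other genes separate the primordial groups was not computed. The part of these markers in the balance was not tested.

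**Figure D3:**
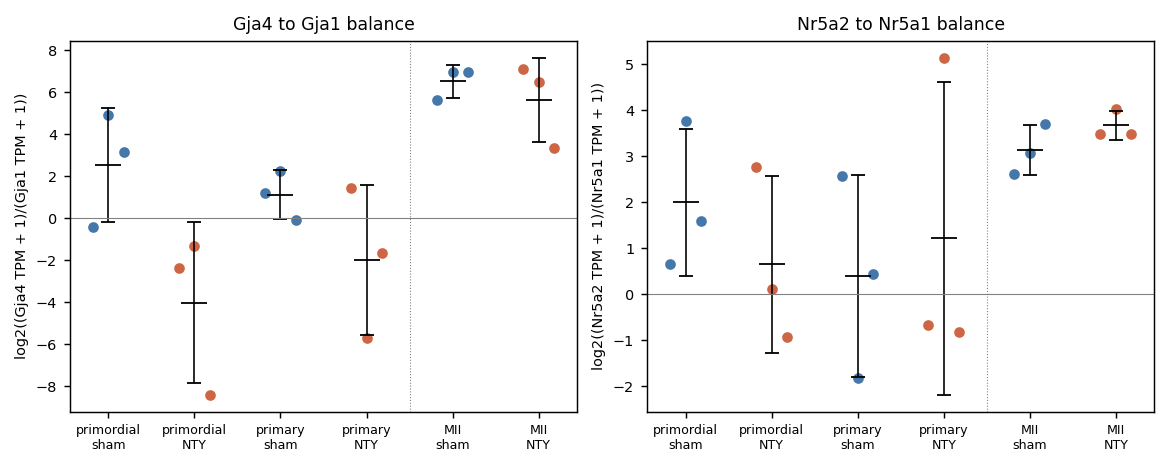
Balance of Gja4 to Gja1 (left) and of Nr5a2 to Nr5a1 (right) in each library, as log2 ratios of TPM + 1, by stage and treatment (points are libraries, blue sham and orange NTY; bars are mean ± SD, n = 3). The primordial NTY libraries lie at -8.42 to -1.31 on the left, below all primordial sham libraries, and the MII libraries lie at 3.35 to 7.09. The share of other gene pairs that separate the primordial groups was not computed.

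Between primary and primordial follicles the Gja4 to Gja1 balance differed by 0.32 (exact permutation p = 0.855, adjusted 0.999). MII libraries exceeded microdissected ones by 6.67 (mean 6.08 ± 1.44, n = 6, against -0.58 ± 3.72, n = 12). All 36 MII pairs within a treatment group showed this direction, with an exact permutation p = 0.000142, the smallest the design allows being 0.00014, and an adjusted p = 0.00085 (0.00128 to 0.0051 leaving out one library). Gja1 was near its floor in MII, so the size depends on the pseudocount, and with 0.1 in place of 1 it was 9.31.

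The balance of the paralogous receptors Nr5a2 to Nr5a1 showed no such separation of treatments. It averaged 1.85 ± 2.40 (SD over all stages, n = 9) in NTY and 1.85 ± 1.83 (SD over all stages, n = 9) in sham. The exact permutation p within stages was 0.999. Primary follicles differed from primordial ones by -0.51 (exact permutation p = 0.745). The MII mean of 3.41 ± 0.49 (SD, n = 6) was 2.34 above the microdissected mean of 1.07 ± 2.13 (SD, n = 12). The exact permutation p of this difference was 0.0254 and missed the threshold after adjustment (0.0507, and 0.0153 to 0.122 leaving out one library). With Nr5a1 at 0 in MII this size, too, depends on the pseudocount, and it was 5.69 with 0.1 (exact permutation p = 0.000567, adjusted 0.0017).

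Across the microdissected comparisons, edgeR called 0 of the 9 genes in each. For NTY against sham in primordial follicles the share of all genes called was 0.0095% (1 of 10522), and 6 of 9 members had a positive estimate, with a median log2 fold change of 1.86 beside 0.12 for all genes. This includes Lgr5, at 0 with no count at that stage, and Krt18, whose positive value rests on 3 counts in NTY replicate 2. In primary follicles 0% of genes were called, 3 of 9 estimates were positive, and the medians were -0.59 and -0.10. Between primary and primordial follicles the share was 0.0095% in sham and 0% in NTY, and for the difference of NTY effects it was 0.0095%. The unadjusted p was under 0.05 for Gja1 in the first of these comparisons, for Lgr5 and Krt18 between the sham stages, and for no member in the other 3. DESeq2 called 0 members for NTY against sham at both stages, Lgr5 in both stage comparisons and Nr5a1 in the difference of effects. Over all genes DESeq2 called 1213 of 10318 for NTY in primordial and 698 of 10114 in primary follicles. Between the stages it called 769 of 10318 in sham and 1127 of 10318 in NTY, and 1216 of 10522 in the difference of effects.

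In MII oocytes the NTY and sham groups were close for the members that could be tested. Gata4, Nr5a2 and Gja4 passed the filter on low counts, and the other 6 did not. The log2 fold changes of NTY against sham were 0.12 (SE 0.50) for Gata4, 0.58 (SE 0.46) for Nr5a2 and -0.02 (SE 0.52) for Gja4, with an edgeR adjusted p of 1 for each. The sign of the Gata4 and Gja4 values turned under other settings. No gene of the 12209 tested was called (0%; 280 had an unadjusted p under 0.05), and DESeq2 called 29, none of them a member.

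Members of the identity group and Gja1 were lower in MII libraries than in microdissected ones, sets that also differ in library method. Of the 9 genes, 5 were called lower by edgeR (Foxl2, Wt1, Gata4, Nr5a1 and Gja1) and none higher, beside 59.5% of all 15929 genes called and 17.2% called lower. The median log2 fold change over all genes was 1.64, which RLE scaling moved to 3.09. The median over the 9 members, -4.13, was the Lgr5 value itself (SE 11470), which is no usable estimate. Foxl2, Wt1 and Nr5a1 had no MII count, so only bounds can be given. Against the highest MII floor (3 counts in 1 library, 0.347 CPM) the microdissected median was at least 639-fold higher for Foxl2, at least 2015-fold for Wt1 and at least 15.7-fold for Nr5a1 (edgeR adjusted p = 0.000315, 3.98e-06 and 0.0004). Wt1 and Gja1 were higher in all 72 pairs of a microdissected and an MII library, and Foxl2 in 66. Nr5a1 was so in 66 pairs above the floor, since primordial sham replicate 1 held 1 count of it. By CPM alone, without the floor, 2.5% of all genes were higher in all 72 pairs.

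Gja1 fell by 9.39 on the log2 scale (SE 1.43, edgeR adjusted p = 6.56e-05), and stood at -11.04 relative to the median of all genes. Gata4 had a value of -2.70 (SE 1.06, edgeR adjusted p = 0.0357), with the microdissected library the higher in 55 of 72 pairs, and this call was lost under each of the 6 other settings tried. Nr5a2 (-2.62, SE 1.54, adjusted p = 0.153) and Gja4 (-1.37, SE 1.17, adjusted p = 0.335) did not pass the edgeR test. The sign of Gja4 turned to 0.26 under RLE scaling, while relative to the median of all genes it was -3.01 under TMM and -2.83 under RLE. Lgr5 and Krt18 were at or under the floor in MII and in most microdissected libraries and gave no usable estimate (adjusted p = 1 for both).

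**Figure D4:**
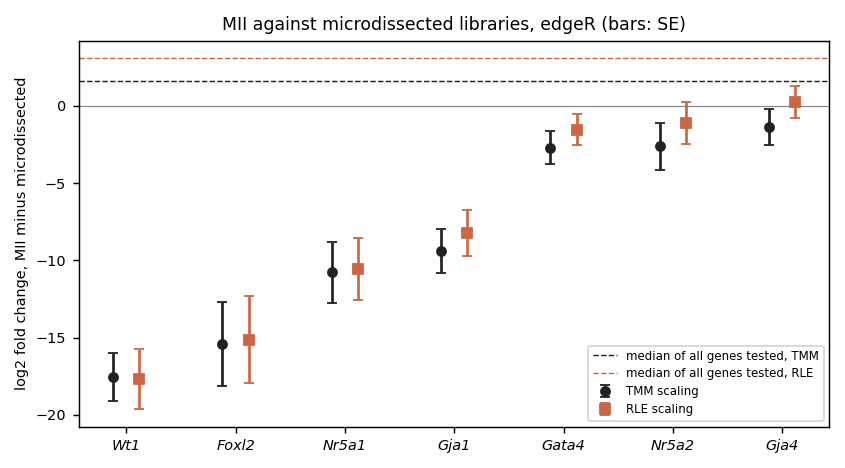
Fitted log2 fold change of MII against microdissected libraries (edgeR, bars are SE) for 7 members under TMM and RLE scaling, with the median of all genes tested under each as a dashed line (1.64 and 3.09). All 7 points lie below these lines, and Gja4 changes sign between the scalings; values of Foxl2, Wt1 and Nr5a1 rest on MII libraries at 0 and are not bounds.

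The other genes of these pathways were compared in the same way. Of 20 other granulosa genes tested, 10 were called lower in MII libraries (the receptor Amhr2, the transcription factors Runx1, Zfpm2, Hey2 and Hes1, and Amh, Inha, Fst, Kctd14 and Notch2) and 4 higher. Of all genes tested, 42.3% were called higher and 17.2% lower. These 4 were the aromatase gene Cyp19a1 (11.19, SE 1.45, edgeR adjusted p = 6.6e-05), the FSH receptor Fshr (3.25), the estrogen receptor Esr2 (3.91) and Serpine2 (1.90). The Fshr call rested on microdissected libraries at 0 (10 of 12), since its mean TPM was 2.14 in the microdissected set, with a highest value of 25.5, and 1.84 in the MII set. Cyp19a1 had 16.2 to 41.4 TPM in MII libraries and at most 0.193 in microdissected ones. The list's median was -4.58.

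Of 8 connexin and pannexin genes tested, Gja1 was the one called lower, and Gja5, Gjb1, Gjb2 and Panx2 were called higher, with a median of 2.60 over the list. Higher calls thus took 4 of 8 genes here, near the 42.3% of all genes. In MII libraries Gjb2 reached 10.6 to 29.3 TPM and Gjb1 2.66 to 9.61, where Gja4 had 35.0 to 171. Panx2 had 1.47 to 8.13 TPM in MII libraries and Gja5 at most 1.92 there, with 0 counts in both MII NTY replicates 2 and 3. Of 10 junction partners, the tight junction scaffold Tjp1 was lower (-3.55, SE 0.71, edgeR adjusted p = 0.000441) and the cadherins Cdh1 and Cdh3 were higher. Tjp1 TPM was 36.6 to 169 in microdissected and 10.8 to 18.4 in MII libraries, without overlap. The catenin genes Ctnnb1 and Ctnna1, the most abundant of that list (microdissected medians of 360 and 345 TPM, MII medians of 239 and 200), did not pass.

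Among 15 ovarian fate and WNT genes, 6 were called lower (Wnt4, Axin2, Irx3, Irx5, Lhx9 and Emx2) and 4 higher (Rnf43, Lef1, Cbx2 and Lhx2). The mean TPM of Rnf43 ran against its call, at 3.21 in the microdissected set (8 of 12 libraries at 0, highest 19.4) and 1.18 in the MII set. Of 6 testis fate genes, 4 were higher (Sox8, Fgf9, Ptgds and Dhh) and Amh lower, while Sox9 had a median of 0 TPM in both sets. Of 3 keratins, Krt20 was higher. Of the marker lists, 9 of 9 stroma genes were lower, 6 of 15 oocyte genes were higher and 1 lower (Sohlh1), 2 of 6 surface epithelium genes were higher and 1 lower, 1 of 2 theca and luteal, 2 of 5 endothelial and 2 of 3 immune genes were higher. Beside the 42.3% of all genes called higher and 17.2% called lower, the 6 of 15, 2 of 6 and 2 of 5 lie near the background. Of the 2 endothelial genes, Tek had a mean TPM of 48.4 in the microdissected set, with 566 in primordial sham replicate 1 and 9 of 12 libraries at 0, and 7.98 in the MII set. Some genes stand in more than one list. In the other 6 comparisons edgeR called 0 genes of these lists, with 1 to 8 of 62 or 78 at an unadjusted p under 0.05 per comparison. DESeq2 called 0 to 10 per comparison. The 10 were of 77 tested between the NTY stages, where it called 1127 of all 10318 genes. In primordial NTY against sham it called 6 of 77, among them Inha as higher (6.06, adjusted p = 0.0129), beside 1213 of all 10318 genes.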

How the data were processed

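RNA was sequenced in bulk from 18 libraries (6 groups of 3). The authors deposited raw counts (53715 genes) and TPM values (28252 of these). The submitters' processing notes name Trim Galore 0.4.1, TopHat2, featureCounts and mm10. Symbols came from the TPM table, and counts were joined by Ensembl identifier. Groups and replicate numbers were taken from the labels. Nothing but writing style was taken from the paper, which does not describe these libraries.

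Counts were tested in R 4.3.3 with edgeR 4.0.16 (quasi-likelihood, robust, TMM, filterByExpr by group, Benjamini-Hochberg over all genes tested, threshold 0.05). The 12 microdissected libraries were fitted together, the 6 MII libraries alone, and all 18 for MII against microdissected. SE is the log2 fold change divided by the root of F. Balances used TPM with a pseudocount of 1 and exact two-sided permutation within strata (Python 3.11.15, numpy 2.4.6, scipy 1.17.1, pandas 2.3.3). The edgeR fits were run on simulated counts, where recovery of changed genes was required only at a dispersion far below that of the data. The common dispersion was 3.59 in the microdissected fit, 0.542 in the MII fit and 2.55 in the fit of all 18 libraries. Recovery at these dispersions is not given here, so this check does not tell how many changes the fits could miss.

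Alternatives were RLE scaling, DESeq2 1.42.0 without Cook filter, limma 3.58.1 with voom and sample weights, a filter on any count, limma on log2(TPM + 1), a replicate block, a sum of primary NTY replicates 2 and 3 (codes 2E and 2E2), and each library left out. For the balances they were a pseudocount of 0.1, CPM, sign flips within replicate numbers and each library left out, and, added after seeing the data, each library method alone and the average of those 2 replicates. Promoter windows came from RefSeq on GRCm38.p6 and coordinates from GENCODE M21 on GRCm38. All 9 members are named. Of the other lists, called genes and those of highest mean TPM could be named. Krt7, Upk1b, Upk3b, Krt19 and Inha per library were chosen after their values were seen. The members, lists and tests were chosen with earlier results of these data known. Depth per library sets the floor of 3 counts.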

Additional observations from a re-analysis of the deposited data

How the results depend on the processing

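Of 629 values recomputed under the alternatives, 523 stayed the same. For a fold change or balance this means the same direction and side of the threshold. For a count of calls it means an equal count, 0 included, or one within 1.5 times. Of the rest, 39 counts moved further or to or from 0, 29 values turned sign, 30 lost and 8 gained a call. Counts of called genes depended on the tool. For NTY against sham in primordial follicles, 1 gene was called by edgeR, against 2 with RLE, 1213 with DESeq2 and 0 with voom (0 to 3 leaving out one library, 0 without NTY replicate 3). In primary follicles 0 were called, against 698 with DESeq2, 58 with voom and 3 on log2 TPM. Between the sham stages 1 was called, against 769 with DESeq2, 104 with voom, 0 with any count as filter and 4 on log2 TPM (0 to 2 leaving out one library). Between the NTY stages 0 were called, against 1127 and 2 with DESeq2 and voom. For the difference of NTY effects 1 was called, against 1216 with DESeq2, 6 with voom, 11 with any count and 0 with the summed replicates (0 to 8 leaving out one library). In MII oocytes 0 were called, against 29 with DESeq2. Why the tools differ was not tested.

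Among members, DESeq2 called 1 each between the sham stages (Lgr5, log2 fold change 27.78), between the NTY stages (Lgr5, 20.49) and in the difference of effects (Nr5a1, -6.90). For MII against microdissected, 4 members were called under each of the 6 other settings, Gata4 being lost with -1.53 (RLE), -1.53 (DESeq2), -1.70 (voom), -2.86 (any count), -1.22 (log2 TPM) and -2.61 (replicate block), and in 10 of 18 fits without one library, at -2.98 to -2.15. Gja4 turned to 0.26 with RLE and DESeq2 and to 0.14 on log2 TPM. For NTY in MII, Gata4 turned to -0.10 on log2 TPM and -0.067 with the replicate block, and ranged from -0.42 to 0.50 leaving out one library, and Gja4 turned to 0.0092 with RLE and with DESeq2 (-0.74 to 0.35).

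The Gja4 to Gja1 balance of NTY against sham was called after adjustment over the 6 balance tests, and the call was lost in MII alone (-0.88), in the microdissected stages alone (-4.83), with primary NTY replicates 2 and 3 averaged (-2.99) and in 9 of 18 cases without one library (-4.08 to -2.78 over all). It held with a pseudocount of 0.1 (exact permutation p = 0.0115, adjusted 0.023) and with CPM (exact p = 0.0107, adjusted 0.0215). Leaving out one library, its stage difference ranged from -0.78 to 1.25, the Nr5a2 to Nr5a1 treatment difference from -0.66 to 0.36 (0.53 in MII alone, 0.24 with the averaged replicates) and stage difference from -1.50 to 0.043. The MII difference of the Nr5a2 to Nr5a1 balance ranged from 2.04 to 2.76 and passed after adjustment with a pseudocount of 0.1 (5.69), with CPM (3.10) and in 3 of 18 cases without one library (primary sham replicate 1, primordial sham replicate 2 or primary NTY replicate 2). Same-numbered libraries hardly deviated together (correlations of their deviations -0.06 to 0.07, mean -0.01). This cannot tell whether such libraries share animals, which the labels do not give. With the replicate block the balance of NTY against sham was -3.52 (sign-flip permutation p = 0.0273, adjusted 0.0625). The MII difference was 6.67 (sign-flip permutation p = 0.0312, the smallest that sign flips allow, adjusted 0.0625), so that neither passed after adjustment. Of the calls of single members, the block lost that of Gata4. Over 791 recomputed member values from the 7 comparisons, 48 turned sign, 16 lost and 3 gained a call. Members whose main estimate in a comparison was missing, 0 or of very large SE were left out there. Among these were Lgr5 and Krt18 for MII against microdissected.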
